A study of Mus musculus with 36 samples.

Results

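The fibrillar and other interstitial collagens are the collagen genes whose products build or decorate the matrix between cells, as opposed to the basement membrane. The set held 34 of the 52636 genes in the count table, given as a list of gene symbols and found by their Ensembl identifiers. Types IV, XV and XVIII, which belong to basement membranes, are not on it. The list held 11 fibril-forming genes, 9 fibril-associated genes, 5 genes of microfibrils or of the type VI family, 3 network or short-chain genes, 1 anchoring-fibril gene, 4 transmembrane genes and Col26a1. The libraries came from skeletal muscle of mice that carried 2 transgenes, S100GFP, in which the S100b promoter drives GFP, and NG2DsRed, in which the promoter of Cspg4 (NG2) drives dsRed. Cells with both colours (labelled NG2DsRed+/S100GFP+, n = 9) are the perisynaptic Schwann cells, called PSCs here, the glia that cap the neuromuscular junction. Cells with green alone (S100GFP+, called S100β-GFP+ here, n = 8) and cells with red alone (NG2DsRed+, called NG2-dsRed+ here, n = 10) are the other groups, sorted from mice with the same transgenes, so that all 3 groups carry both. According to the methods, the mice were juveniles of 15 to 21 days (the labels give 15 days as the lower age of every sample and an upper age between 21 and 46 days), each replicate came from 1 mouse, and diaphragm, pectoralis and limb muscles were dispersed with collagenase before the cells were sorted by flow cytometry. Whether the 3 sorts of a given mouse are among these libraries is not given, and either reporter marks any cell in which its promoter is active.

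A collagen is built from 3 chains that wind into a triple helix, and the helix requires a glycine in each repeat of 3 residues. The fibril-forming types I, II, III, V, XI, XXIV and XXVII pack into banded fibrils. The fibril-associated types, among them IX, XII, XIV, XVI, XX and XXII, have short or interrupted helices and sit on the surface of those fibrils. Type VI forms beaded microfibrils next to cells. In muscle the fibrils are laid down mostly by fibroblasts of the connective tissue, while Schwann cells of nerve make a basement membrane of their own and some type V collagen.

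The libraries held between 5221655 and 9592875 counts on genes. Levels are given in CPM, which are counts scaled to a common library size after TMM normalization, so that a gene near 1 CPM rests on a few reads. Between 3.64% and 40.02% of the counts of a library lay on 3 genes, Lars2, Gm23935 and Gm15564. The labels were checked against lists of cell type markers by summed CPM. Schwann cell markers summed to 4947 to 5718 in PSCs, 1520 to 3749 in S100β-GFP+ cells and 329 to 1066 in NG2-dsRed+ cells, with Gfap under 1 CPM in every group. Fibroblast markers summed to 359 to 698, 5888 to 14250 and 1284 to 9072 in the same order, pericyte and smooth muscle markers to 1084 to 1784, 260 to 1741 and 7498 to 16280, and macrophage markers to 34.3 to 570, 1090 to 10350 and 12.8 to 67.6. The S100β-GFP+ libraries therefore carried fibroblast and macrophage transcripts beside Schwann cell transcripts. Their libraries 14, 17 and 22 also carried endothelial markers at 600 to 2275 against 29.7 to 107 in the other 5. In the same libraries pericyte and smooth muscle markers summed to 1029 to 1741, against 260 to 930 in the other 5. Endothelial markers were highest in NG2-dsRed+ cells, at 1235 to 3021, and summed to 87.4 to 572 in PSCs. One PSC library, number 31, stood apart by transcripts of cartilage: 10 of 14 chondrocyte and tenocyte markers were higher in it than in every other PSC library, with Acan at 285 CPM against 0 to 2.42 in the others. Results that rest on these libraries are given with and without them. In bulk samples fewer cells of a type and less RNA per cell cannot be told apart.

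Collagen transcripts took a small share of the PSC libraries. The 34 genes held 0.593 to 1.41% of the counts in PSCs, with a median of 0.711% and the highest value in library 31. The share was 2.04 to 3.92% in S100β-GFP+ cells, with a median of 3.05%, and every S100β-GFP+ library lay above every PSC library. In NG2-dsRed+ cells it was 0.394 to 2.51%, with a median of 1.11%, and this range overlapped the other 2. The NG2-dsRed+ libraries with the largest shares were 28 and 35, whose fibroblast markers summed to 9072 and 5647 CPM, the highest of that group. Fibroblast markers thus moved with the collagen share across groups, and their part in the collagen results was not tested.

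**Figure D1:**
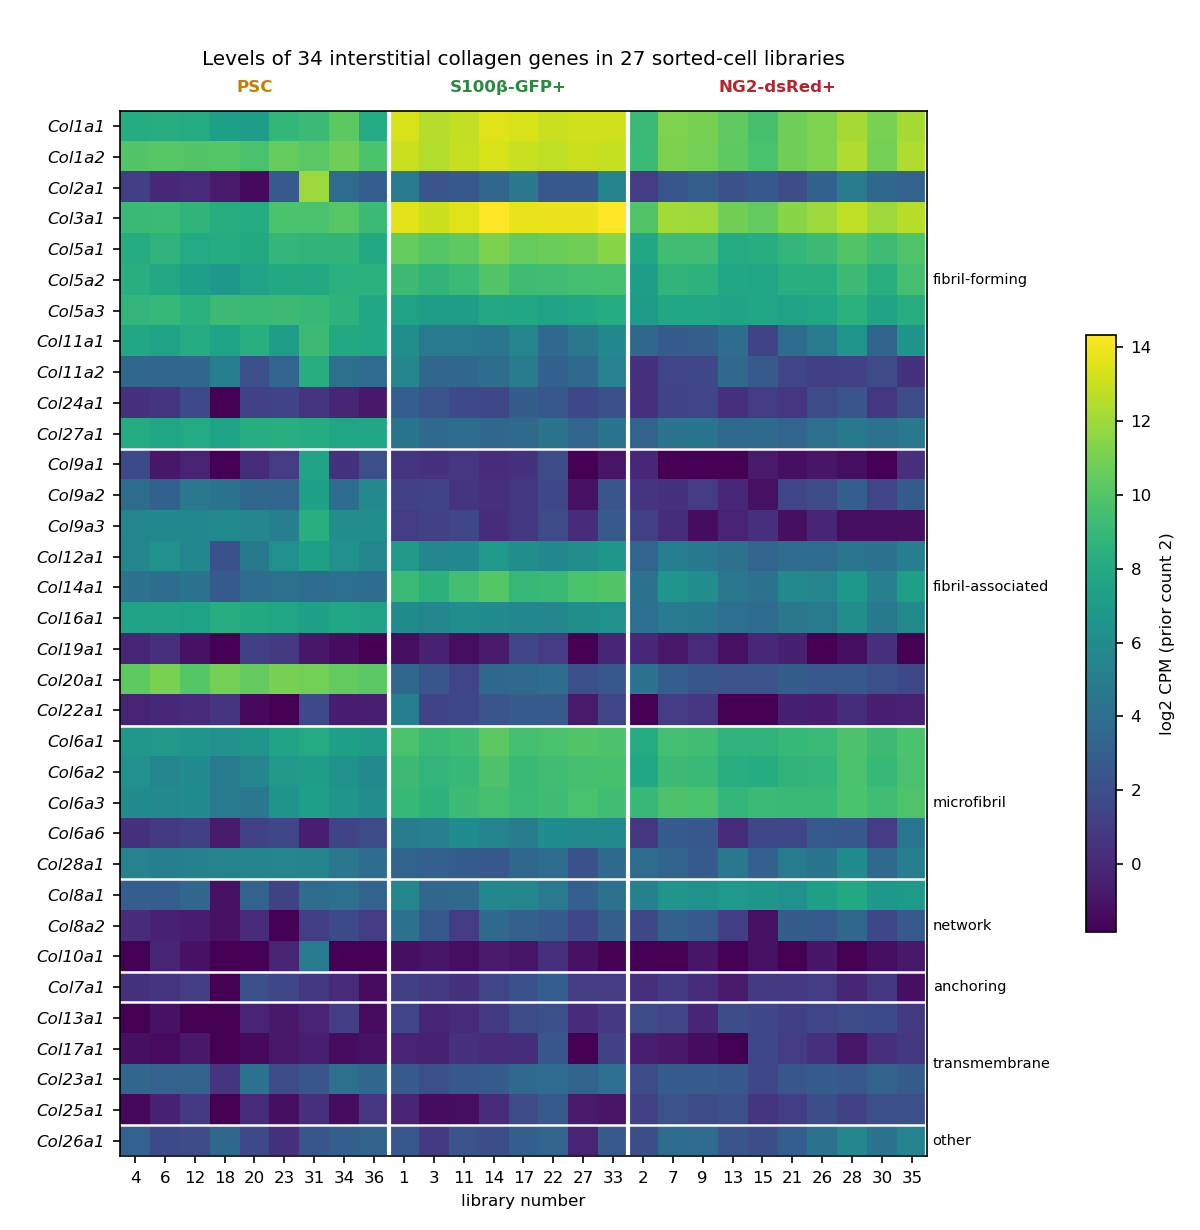
Level of the collagen genes (rows, by class) in each of the 27 libraries (columns, by cell type) as log2 CPM. Within a row, the PSC columns are brighter than those of both other groups for Col20a1, Col27a1, Col11a1 and Col9a3. They are dimmer than both for Col6a1, Col6a2 and Col6a3, and dimmer than S100β-GFP+ cells for Col14a1. PSC library 31 alone is bright for Col2a1.

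The order of the genes differed between the cell types. Comparing genes requires a level per length, here CPM per kilobase of exon. In PSCs Col20a1 had the highest level, at 311 ± 79.3 CPM per kilobase (mean ± SD, n = 9), followed by Col1a2 at 93.2 ± 23.1 and Col5a3 at 68.4 ± 18.7. Col20a1 made up 34.8% of the summed per-length level of the 34 genes in PSCs, or 28.7% when the length of the coding transcript was used in place of the union of exons. The places below it were not separated by their spread, since Col5a3, Col1a1 and Col3a1 had means of 68.4, 62.8 and 62.6. In S100β-GFP+ cells the same scale put Col3a1 first at 1515 ± 422, then Col1a1 at 1394 ± 285 and Col1a2 at 644 ± 112 (n = 8), the first pair within their spread. In NG2-dsRed+ cells Col3a1 at 374 ± 204, Col1a1 at 345 ± 207 and Col1a2 at 194 ± 138 (n = 10) led without a separation beyond their spread.

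Of the 34 genes, 30 were among the 15330 genes with enough counts for edgeR's quasi-likelihood test. Between PSCs and S100β-GFP+ cells 9 were higher in PSCs and 15 lower, and 6 did not pass an adjusted p of 0.05. Over all genes tested 22.9% were higher and 24.1% lower in that comparison, and 47% were called in either direction. The median log2 fold change of the 30 genes was -1.35, against 0.04 over all genes. Between PSCs and NG2-dsRed+ cells 10 were higher, 15 were lower and 5 did not pass, where 20.9% of all genes were higher and 23.1% lower (44% in all), and the medians were -0.69 and 0.02. These comparisons share the 9 PSC libraries, so their values are set side by side and are not independent of each other. Between S100β-GFP+ and NG2-dsRed+ cells 13 were higher in S100β-GFP+ cells, 3 were lower and 14 did not pass, against 18.1% and 15.2% of all genes (33.3% in all), with medians of 0.75 and -0.02. Without PSC library 31 the counts of higher and lower genes were 8 and 16, 9 and 14, and 12 and 3 in the same order.

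For some collagens the libraries of 2 cell types did not overlap at all. In PSCs 7 genes lay above every S100β-GFP+ library and 10 lay below every one, where 5.24% and 10.3% of all genes tested did so. Against NG2-dsRed+ cells 6 lay above and 4 below, where the shares of all genes were 5.08% and 8.83%. In S100β-GFP+ cells 7 lay above every NG2-dsRed+ library and none below, where the shares were 7.21% and 4.38%.

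**Figure D2:**
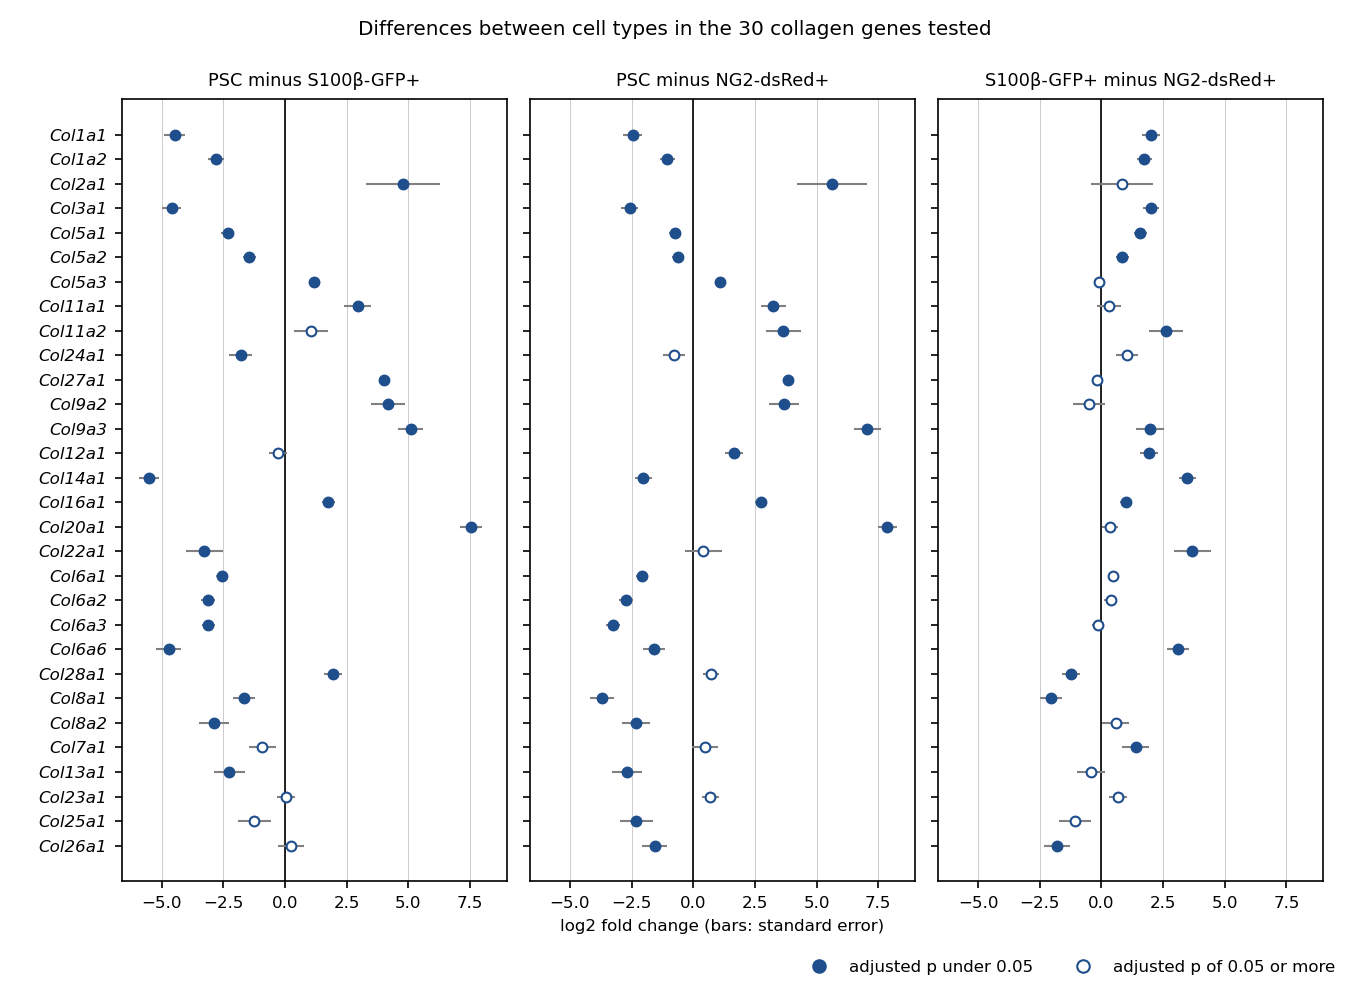
Log2 fold change with its standard error for the 30 tested collagen genes, by class, for PSCs against S100β-GFP+ cells, PSCs against NG2-dsRed+ cells and S100β-GFP+ against NG2-dsRed+ cells. Col20a1 lies at 7.53 and 7.87 in the first 2 comparisons, and Col14a1 at -5.51 and -2.03.

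Col20a1, a fibril-associated collagen of the group that also holds types XII and XIV, had the largest rise of the 30 genes in both PSC comparisons. The gene lies on the plus strand of chromosome 2 at chr2:180986535-181018363 (GRCm38, GENCODE M21). Its level in PSCs was 1085, 1400 and 2137 CPM at the lowest, the median and the highest of 9 libraries. In S100β-GFP+ cells these values were 2.63, 8.42 and 15.3 CPM, and in NG2-dsRed+ cells 2.91, 5.46 and 20.0 CPM. The lowest PSC library was thus far above the highest library of either other group, and the other groups overlapped each other. Col20a1 in PSCs was 184-fold higher than in S100β-GFP+ cells (log2 7.53 ± 0.44 SE, adjusted p = 4.98e-14) and 234-fold higher than in NG2-dsRed+ cells (7.87 ± 0.40, adjusted p = 1.91e-15). Without library 31 the log2 fold changes were 7.50 and 7.84. Between S100β-GFP+ and NG2-dsRed+ cells it differed by 0.34 ± 0.33 (adjusted p = 0.466). That comparison passed without NG2-dsRed+ library 2 (0.73, adjusted p = 0.0461), the library with 20.0 CPM and with the highest Schwann cell marker sum of its group. BX649560.1, another annotated gene on the same strand, shares 79 exonic bases with Col20a1.

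The coding sequence of Col20a1 shows how short its helix is beside that of a fibril-forming chain. Counting codons from the start codon of the GENCODE transcript, the longest unbroken run of triplets that begin with a glycine codon was 32 in Col20a1, whose 1362 codons held 11.0% of their length in such runs. It was 338 triplets in Col1a1, with 73.3% of 1453 codons, 32 in both Col12a1 and Col14a1, and 113 in each of the type IX genes. The first 10 triplets of the longest run are printed for Col20a1, from codon 1168, and for Col1a1, from codon 168, with the glycine codons in capitals to show the shared repeat.
Col20a1: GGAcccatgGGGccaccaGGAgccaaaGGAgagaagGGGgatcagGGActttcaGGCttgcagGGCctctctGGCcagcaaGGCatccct
Col1a1: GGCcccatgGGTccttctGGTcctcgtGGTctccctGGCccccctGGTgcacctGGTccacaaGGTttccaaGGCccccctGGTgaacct
Both stretches open each triplet with a glycine codon, and what differs is how long the repeat runs on. The region that the study's qPCR primers for Col20a1, agtcagccatacggacacat and ctccaggaagtagagcctcg, enclose is 150 bases long and lies at bases 3833 to 3982 of the 4489-base transcript, within its coding part. The 2 genes with the highest level per length in PSCs, Col20a1 and Col1a2, are also shown by the sequence around their start in RefSeq (GRCm38.p6, 250 bases before to 50 after), 5′ to 3′, because they stand on opposite sides of the PSC comparisons. Capitals mark the SOX-type motif ACAAAG in the Col20a1 window at chr2:180986285-180986584 (plus strand) and CCAAT in the Col1a2 window at chr6:4505368-4505667 (plus strand), each on either strand.
Col20a1 window: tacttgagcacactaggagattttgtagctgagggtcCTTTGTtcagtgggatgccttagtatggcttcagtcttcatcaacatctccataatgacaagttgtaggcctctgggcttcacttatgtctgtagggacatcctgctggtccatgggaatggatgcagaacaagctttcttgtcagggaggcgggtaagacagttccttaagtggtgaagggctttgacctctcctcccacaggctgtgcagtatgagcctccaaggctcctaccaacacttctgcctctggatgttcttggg
Col1a2 window: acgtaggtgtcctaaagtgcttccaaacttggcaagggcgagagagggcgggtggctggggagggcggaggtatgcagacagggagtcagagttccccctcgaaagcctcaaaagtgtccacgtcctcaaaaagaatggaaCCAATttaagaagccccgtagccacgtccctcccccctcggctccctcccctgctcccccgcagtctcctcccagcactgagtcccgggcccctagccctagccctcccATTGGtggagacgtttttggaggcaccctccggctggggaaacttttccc
The Col20a1 window holds the SOX-type motif once, as CTTTGT, starting 213 bases before the annotated start, and the Col1a2 window holds CCAAT 2 times. In the GENCODE transcript of Col20a1 the coding part begins at base 1, so its annotated start is the start codon. Whether this window covers the place where transcription of Col20a1 begins was not tested. ACAAAG occurred on either strand in 18.7% of the 32851 promoter windows searched, which did not cover every chromosome. It occurred in those of 5 of the 26 collagen genes with a window, which were Col3a1, Col10a1, Col17a1, Col20a1 and Col28a1. CCAAT occurred in 37.4% of the windows searched and in those of 8 collagen genes, and TATAAA on the strand of the gene in 8.32% and in 5. These matches are letters in a window and no measurement of binding.

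The fibril-associated genes differed by type. Of the 7 tested, Col20a1 included, 4 were higher and 2 lower in PSCs than in S100β-GFP+ cells (median log2 1.76), and 5 were higher and 1 lower than in NG2-dsRed+ cells (median 2.75), beside the shares of all genes of 22.9% and 24.1%, and of 20.9% and 23.1%. Type IX collagen, known from the surface of cartilage fibrils, has 3 chains. Col9a3 had 35.5, 52.5 and 311 CPM at the lowest, median and highest PSC library, against 0.871, 2.00 and 6.21 in S100β-GFP+ cells and 0.127, 0.348 and 2.13 in NG2-dsRed+ cells. No PSC library overlapped either group, and library 31 was the highest. The gene was 34.0-fold higher than in S100β-GFP+ cells (log2 5.09 ± 0.52, adjusted p = 2.34e-09) and 134-fold higher than in NG2-dsRed+ cells (7.06 ± 0.54, adjusted p = 8.10e-12). It was 3.94-fold higher in S100β-GFP+ than in NG2-dsRed+ cells (adjusted p = 0.00624). Without library 31 the PSC differences were 4.48 and 6.46 on the log2 scale, and the highest PSC library had 69.6 CPM. Col9a2 had 8.87, 15.0 and 173 CPM in PSCs, 0.174, 1.80 and 4.88 CPM in S100β-GFP+ cells and 0.175, 2.20 and 7.76 CPM in NG2-dsRed+ cells. It too separated PSCs from both groups, by log2 4.18 ± 0.69 (adjusted p = 8.95e-06) and 3.67 ± 0.60 (adjusted p = 1.03e-05), and by 3.30 and 2.80 without library 31. S100β-GFP+ and NG2-dsRed+ cells differed by -0.51 ± 0.64 for Col9a2 (adjusted p = 0.595). The third chain, Col9a1, did not pass the filter, with a median of 1.17 CPM in PSCs, 196 CPM in library 31 and at most 4.00 CPM in the other 8.

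Col16a1, a fibril-associated collagen of broad occurrence, had 172, 199 and 301 CPM in PSCs, 48.1, 62.5 and 77.7 CPM in S100β-GFP+ cells and 14.9, 25.8 and 70.0 CPM in NG2-dsRed+ cells. PSCs lay above both groups in every library, 3.38-fold (log2 1.76 ± 0.25, adjusted p = 8.40e-07) and 6.73-fold (2.75 ± 0.24, adjusted p = 1.12e-10). S100β-GFP+ cells were higher than NG2-dsRed+ cells by 1.99-fold (adjusted p = 0.00129). Col14a1, which binds collagen I fibrils in skin, tendon and muscle connective tissue, went the other way. PSC libraries had 6.31, 15.9 and 20.5 CPM, S100β-GFP+ libraries 376, 648 and 1057 CPM and NG2-dsRed+ libraries 17.9, 50.7 and 164 CPM. PSCs lay wholly below S100β-GFP+ cells and overlapped the low end of NG2-dsRed+ cells. The gene was 45.6-fold lower than in S100β-GFP+ cells (log2 -5.51 ± 0.41, adjusted p = 4.27e-12), 4.09-fold lower than in NG2-dsRed+ cells (-2.03 ± 0.34, adjusted p = 1.70e-05) and 11.2-fold higher in S100β-GFP+ than in NG2-dsRed+ cells (3.48 ± 0.36, adjusted p = 5.57e-09).

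Col12a1, the other close relative of Col14a1, did not follow it. Its PSC libraries ran from 4.38 to 160 CPM with a median of 52.2 and library 31 the highest, a wider range than in S100β-GFP+ cells (48.5, 71.3 and 117 CPM) or NG2-dsRed+ cells (10.4, 19.3 and 35.6 CPM). It was 3.14-fold higher in PSCs than in NG2-dsRed+ cells (log2 1.65 ± 0.37, adjusted p = 0.000487) and 3.82-fold higher in S100β-GFP+ than in NG2-dsRed+ cells (adjusted p = 0.000154), with no overlap in the latter. Against S100β-GFP+ cells the PSC difference was -0.28 ± 0.38 (adjusted p = 0.570). Col22a1, a collagen of the myotendinous junction, reached 3.00 CPM at most in PSCs and 1.73 in NG2-dsRed+ cells, and had 0.348, 4.01 and 34.8 CPM in S100β-GFP+ cells, where library 1 was the highest. The groups overlapped, and S100β-GFP+ cells were higher than PSCs by 9.66-fold (adjusted p = 0.000746) and than NG2-dsRed+ cells by 12.8-fold (adjusted p = 0.000283). In the same library 1 the chondrocyte and tenocyte markers summed to 1344 CPM, the highest of the S100β-GFP+ libraries, and their part in the Col22a1 value was not tested. Col19a1 was not tested, with no library above 2.60 CPM.

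**Figure D3:**
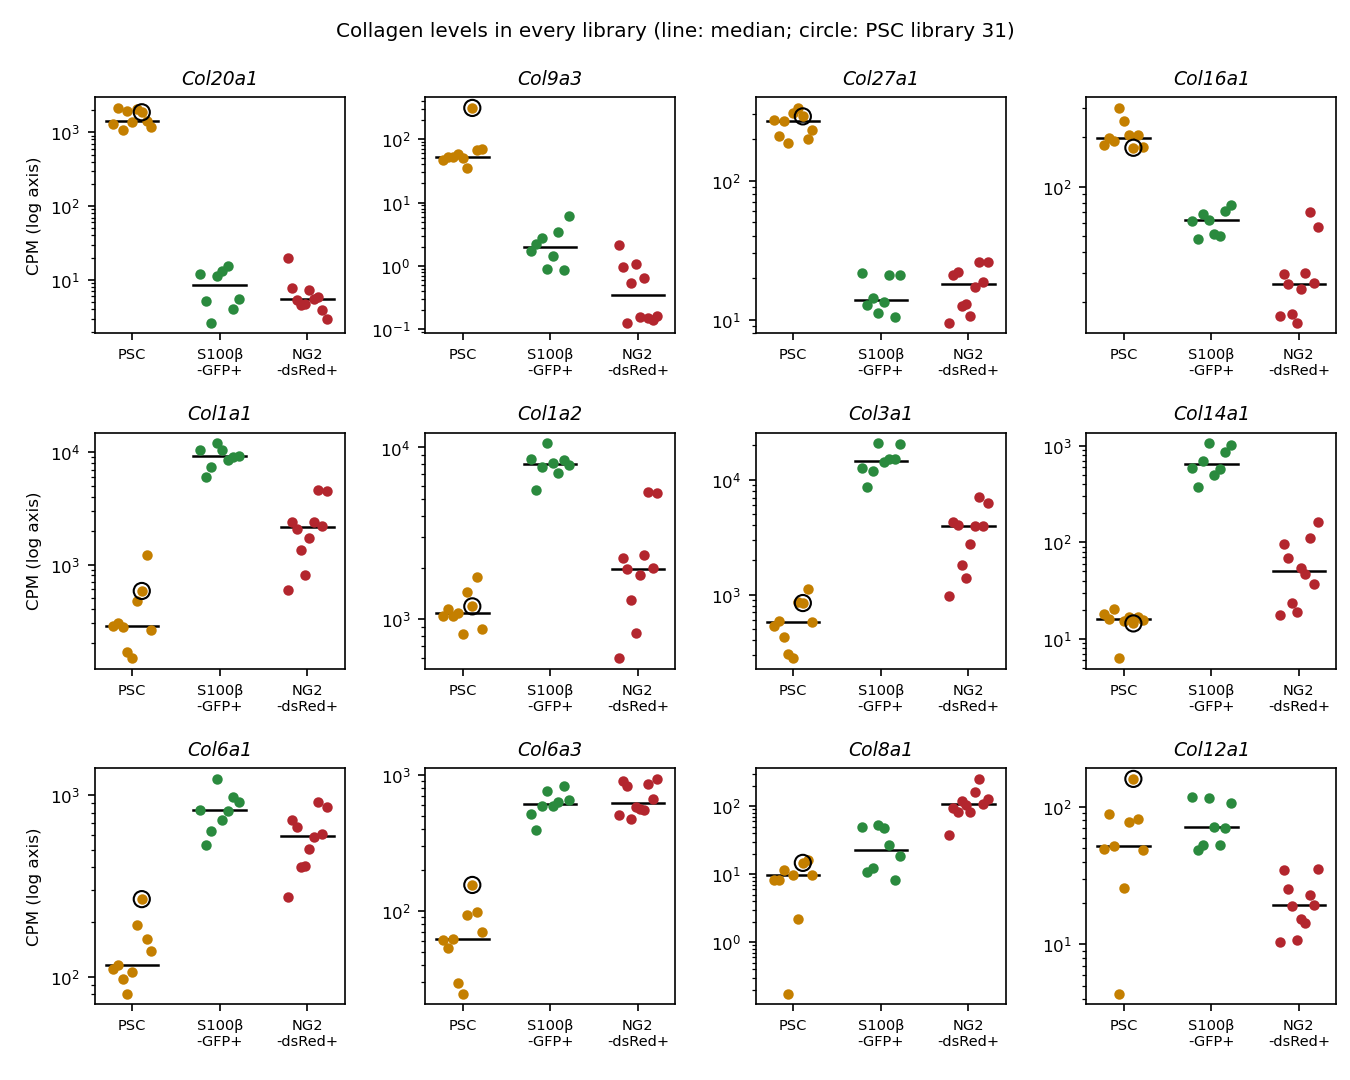
CPM of 12 collagen genes on a log axis, with 1 point per library, a line at the median of each cell type and a circle around PSC library 31. PSCs lie above both other groups for Col20a1, Col9a3, Col27a1 and Col16a1 and below S100β-GFP+ cells for Col1a1, Col1a2, Col3a1, Col14a1, Col6a1 and Col6a3.

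The fibril-forming genes moved in both directions. Of 11 tested, 4 were higher and 6 lower than in S100β-GFP+ cells, where the shares of all genes were 22.9% and 24.1%, and 5 were higher and 5 lower than in NG2-dsRed+ cells, where they were 20.9% and 23.1%. Between S100β-GFP+ and NG2-dsRed+ cells 6 were higher in the former and none lower, against 18.1% and 15.2% of all genes. Col2a1 was among the genes higher in both PSC comparisons, and those calls rest on PSC library 31. Without that library the quasi-likelihood test gave log2 -1.97 (adjusted p = 0.0193) and -1.13 (adjusted p = 0.164) for Col2a1. The 5 that were lower in both PSC comparisons were Col1a1, Col1a2, Col3a1, Col5a1 and Col5a2, chains of the types I, III and V that make up fibrils of ordinary connective tissue. Col1a1, the α1 chain of type I (chr11:94936224-94953042, plus strand), had 147, 287 and 1214 CPM in PSCs, with library 34 the highest, against 6027, 9186 and 11980 in S100β-GFP+ cells and 591, 2146 and 4605 in NG2-dsRed+ cells. It lay below every S100β-GFP+ library and overlapped NG2-dsRed+ cells. The difference was 22.2-fold (log2 -4.47 ± 0.43, adjusted p = 7.06e-10) and 5.49-fold (-2.46 ± 0.38, adjusted p = 5.23e-06).

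Col1a2, the α2 chain (chr6:4504814-4541544, plus strand), was less reduced. PSC libraries had 826, 1091 and 1758 CPM, against 5629, 8026 and 10560 in S100β-GFP+ cells and 595, 1966 and 5515 in NG2-dsRed+ cells. It was 6.91-fold lower than in S100β-GFP+ cells (log2 -2.79 ± 0.33, adjusted p = 4.40e-08), without overlap, and 2.08-fold lower than in NG2-dsRed+ cells (-1.05 ± 0.30, adjusted p = 0.00551), with overlap. Col3a1, whose product forms fibrils with type I (chr1:45311538-45349706, plus strand), had 279, 577 and 1128 CPM in PSCs, 8646, 14670 and 20770 in S100β-GFP+ cells and 972, 3986 and 7146 in NG2-dsRed+ cells. It was 24.2-fold lower than in S100β-GFP+ cells (log2 -4.60 ± 0.38, adjusted p = 3.36e-11) and 5.97-fold lower than in NG2-dsRed+ cells (-2.58 ± 0.34, adjusted p = 3.16e-07), below every library of the former and overlapping the latter. Its exons share 141 bases with Gm47302 on the same strand, so some reads cannot be assigned to one of them with certainty. All 3 genes were higher in S100β-GFP+ than in NG2-dsRed+ cells without overlap, by log2 2.02 ± 0.38 for Col1a1 (adjusted p = 9.07e-05), 1.73 ± 0.31 for Col1a2 (5.34e-05) and 2.02 ± 0.33 for Col3a1 (1.51e-05).

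Type V collagen nucleates the fibrils of type I, and its 3 genes did not move together. Col5a1 had 254, 295 and 472 CPM in PSCs, 1072, 1564 and 2835 in S100β-GFP+ cells and 228, 621 and 988 in NG2-dsRed+ cells. It lay below every S100β-GFP+ library (5.03-fold, log2 -2.33 ± 0.27, adjusted p = 2.25e-08), and against NG2-dsRed+ cells it was 1.69-fold lower (-0.75 ± 0.25, adjusted p = 0.0138). The latter call was lost without NG2-dsRed+ library 28 (-0.57, adjusted p = 0.0537) or 35 (-0.58, adjusted p = 0.0524). For Col5a1 every S100β-GFP+ library lay above every NG2-dsRed+ library (log2 1.57 ± 0.25, adjusted p = 1.21e-05). Col5a2, the neighbour of Col3a1 on chromosome 1 at a distance of 24.6 kilobases and on the opposite strand, had 111, 245 and 357 CPM in PSCs, 434, 652 and 980 in S100β-GFP+ cells and 151, 333 and 754 in NG2-dsRed+ cells. It was 2.75-fold lower than in S100β-GFP+ cells (log2 -1.46 ± 0.27, adjusted p = 4.04e-05), without overlap. Its difference from NG2-dsRed+ cells was 1.54-fold (-0.62 ± 0.25, adjusted p = 0.0457), a call lost in 25 of the alternative settings, with log2 values from -0.64 to -0.36 in them. S100β-GFP+ cells were 1.79-fold higher than NG2-dsRed+ cells (log2 0.84 ± 0.26, adjusted p = 0.0111), with overlap. That call was lost with total counts (0.58, adjusted p = 0.105) and without S100β-GFP+ libraries 14, 17 and 22 (0.69, adjusted p = 0.0817).

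Col5a3, the chain of type V known from Schwann cells of developing nerve, was higher in PSCs. Its libraries had 226, 481 and 617 CPM in PSCs, 150, 198 and 288 in S100β-GFP+ cells and 129, 203 and 363 in NG2-dsRed+ cells, and the lowest PSC values overlapped both groups. The rise was 2.28-fold (log2 1.19 ± 0.20, adjusted p = 1.71e-05) and 2.12-fold (1.08 ± 0.19, adjusted p = 2.51e-05). S100β-GFP+ and NG2-dsRed+ cells differed by -0.10 ± 0.19 (adjusted p = 0.730). Col27a1, a fibril-forming collagen with a shorter helix that is known from cartilage, had 186, 267 and 333 CPM in PSCs against 10.5, 13.9 and 21.5 in S100β-GFP+ cells and 9.50, 18.0 and 25.9 in NG2-dsRed+ cells. Every PSC library was above every other library, including without library 31. The rise was 16.3-fold (log2 4.02 ± 0.23, adjusted p = 3.78e-14) and 14.5-fold (3.85 ± 0.21, adjusted p = 6.34e-15), and the other groups differed by -0.17 ± 0.20 (adjusted p = 0.569).

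Col11a1 encodes a chain that joins type II or type V chains in thin fibrils. Its PSC libraries had 151, 237 and 603 CPM, against 12.7, 28.1 and 69.7 in S100β-GFP+ cells and 2.45, 13.4 and 98.1 in NG2-dsRed+ cells, with no overlap. It was 7.69-fold higher than in S100β-GFP+ cells (log2 2.94 ± 0.56, adjusted p = 6.84e-05) and 9.50-fold higher than in NG2-dsRed+ cells (3.25 ± 0.52, adjusted p = 6.89e-06), and the log2 values were 2.71 and 3.01 without library 31. S100β-GFP+ and NG2-dsRed+ cells differed by 0.31 ± 0.50 (adjusted p = 0.690), which passed by voom (1.26, adjusted p = 0.0128). Col11a2, its partner chain in cartilage, had 4.02, 11.9 and 309 CPM in PSCs, 8.89, 13.9 and 50.5 in S100β-GFP+ cells and 1.13, 2.65 and 13.0 in NG2-dsRed+ cells. PSCs and S100β-GFP+ cells differed by 1.05 ± 0.68 (adjusted p = 0.210), a value that became -0.69 without library 31 (adjusted p = 0.218) and passed with the share of the 3 abundant genes as a term (1.61, adjusted p = 0.0271). Both were higher than NG2-dsRed+ cells, PSCs by log2 3.65 ± 0.70 (adjusted p = 8.92e-05; 1.92 and 0.000793 without library 31) and S100β-GFP+ cells by 2.60 ± 0.70 (adjusted p = 0.00406).

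Col2a1, the main collagen of cartilage, rested on 1 library. Its PSC libraries had 0.0956, 1.97 and 3859 CPM at the lowest, median and highest, and the highest was library 31, since the other 8 reached at most 14.0. S100β-GFP+ cells had 5.00, 8.38 and 41.7 CPM and NG2-dsRed+ cells 1.70, 6.83 and 28.4 CPM. With library 31 the test called PSCs higher than S100β-GFP+ cells (log2 4.79 ± 1.49, adjusted p = 0.00920) and higher than NG2-dsRed+ cells (5.63 ± 1.41, adjusted p = 0.00163). Without it the first value was -1.97 ± 0.69 (adjusted p = 0.0193) and the second -1.13 ± 0.65 (adjusted p = 0.164), so the direction turned in both. S100β-GFP+ and NG2-dsRed+ cells differed by 0.84 ± 1.26 (adjusted p = 0.658). Library 31 was also the highest PSC library for Col9a1, Col9a2, Col9a3, Col11a1 and Col11a2 and for Col10a1, a collagen of hypertrophic cartilage, at 28.9 CPM against at most 0.626 in the other 8. In library 31 Hapln1 and Matn3, genes of cartilage matrix, had 217 and 99.1 CPM, against at most 5.89 and 0.389 in the other PSC libraries. Col24a1, a fibril-forming gene of low level, had at most 7.84 CPM in any library and was lower in PSCs than in S100β-GFP+ cells by 3.47-fold (adjusted p = 0.00205). Its other differences were -0.77 for PSCs against NG2-dsRed+ cells (adjusted p = 0.165) and 1.03 for S100β-GFP+ against NG2-dsRed+ cells (adjusted p = 0.0743). The latter passed by DESeq2 (1.09, adjusted p = 0.0348), by voom (1.02, adjusted p = 0.00842), in the fit of these cell types alone (1.04, adjusted p = 0.0152), without PSC library 18 (1.06, adjusted p = 0.0241) and without NG2-dsRed+ library 28 (1.25, adjusted p = 0.0322).

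**Figure D4:**
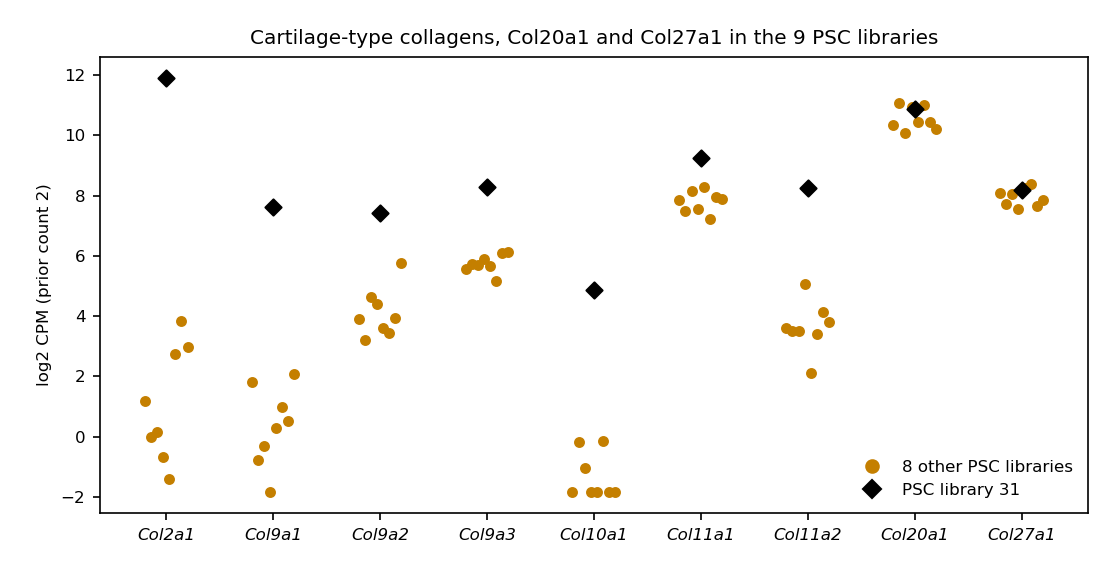
CPM of cartilage-type collagens, Col20a1 and Col27a1 in the 9 PSC libraries on a log axis. Library 31 is far above the other 8 for Col2a1 (3859 against at most 14.0 CPM), Col9a1 and Col11a2, while it lies within their range for Col20a1 and Col27a1.

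Of the 5 genes of type VI collagen and its relatives, PSCs had 4 lower and 1 higher than S100β-GFP+ cells (median log2 -3.11), and 4 were lower than in NG2-dsRed+ cells (median -2.07). The shares of all genes that were lower were 24.1% and 23.1%, and of those that were higher 22.9% and 20.9%. Col6a1, Col6a2 and Col6a3 encode the 3 chains of the common form. Col6a1 had 80.6, 115 and 267 CPM in PSCs, 528, 824 and 1225 in S100β-GFP+ cells and 274, 597 and 914 in NG2-dsRed+ cells. It was 5.89-fold lower (log2 -2.56 ± 0.25, adjusted p = 8.42e-10) and 4.21-fold lower (-2.07 ± 0.24, adjusted p = 2.60e-08). Col6a2, 85.2 kilobases from Col6a1 on chromosome 10 and on the same strand, had 29.3, 64.2 and 145 CPM in PSCs, 440, 630 and 901 in S100β-GFP+ cells and 228, 486 and 832 in NG2-dsRed+ cells. PSCs were 8.68-fold lower (-3.12 ± 0.30, adjusted p = 5.27e-10) and 6.68-fold lower (-2.74 ± 0.28, adjusted p = 4.08e-09). Col6a3 had 24.8, 62.9 and 156 CPM in PSCs, 396, 618 and 831 in S100β-GFP+ cells and 477, 623 and 938 in NG2-dsRed+ cells. It was 8.62-fold lower (-3.11 ± 0.28, adjusted p = 1.37e-10) and 9.53-fold lower (-3.25 ± 0.27, adjusted p = 5.11e-11). For all 3 chains every PSC library lay below every library of both other groups, and S100β-GFP+ and NG2-dsRed+ cells differed by 0.48, 0.38 and -0.14 on the log2 scale, none past the threshold. For Col6a1 that difference passed by voom (0.56, adjusted p = 0.0198) and without NG2-dsRed+ library 28 (0.61, adjusted p = 0.0458).

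Col6a6, a chain that can take the place of the α3 chain, separated S100β-GFP+ cells from both others. It had 31.8, 50.4 and 64.8 CPM there, against 0.350, 2.09 and 3.37 in PSCs and 0.890, 4.13 and 22.2 in NG2-dsRed+ cells. S100β-GFP+ cells overlapped neither group, PSCs being lower by 26.3-fold (log2 -4.72 ± 0.50, adjusted p = 4.29e-09) and NG2-dsRed+ cells by 8.65-fold (adjusted p = 1.60e-06). PSCs and NG2-dsRed+ cells overlapped and differed by 3.04-fold (-1.60 ± 0.45, adjusted p = 0.00453), a call lost by voom (-1.18, adjusted p = 0.0622). Col28a1, a collagen known from peripheral nerve, was the member of this class that was higher in PSCs. Its libraries had 15.5, 39.2 and 45.6 CPM in PSCs, 4.36, 9.27 and 15.3 in S100β-GFP+ cells and 6.598, 17.9 and 63.4 in NG2-dsRed+ cells. PSCs lay above every S100β-GFP+ library (3.85-fold, log2 1.95 ± 0.36, adjusted p = 5.27e-05) and overlapped NG2-dsRed+ cells, where the difference was 0.71 ± 0.32 (adjusted p = 0.0774). The latter passed by voom (1.18, adjusted p = 0.000544), with total counts (0.92, adjusted p = 0.0251), and without NG2-dsRed+ library 28 (1.10, adjusted p = 0.00216) or 35 (0.84, adjusted p = 0.0426), or without PSC library 34 (0.82, adjusted p = 0.0483) or 36 (0.86, adjusted p = 0.0329). S100β-GFP+ cells were 2.36-fold lower than NG2-dsRed+ cells (adjusted p = 0.00634).

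Col8a1, a short-chain collagen of network type that is known from vascular smooth muscle and endothelium, was highest in NG2-dsRed+ cells. The levels were 37.7, 107 and 254 CPM there, 8.36, 22.9 and 52.8 CPM in S100β-GFP+ cells and 0.175, 9.66 and 16.3 CPM in PSCs. PSCs lay below every NG2-dsRed+ library (13.0-fold, log2 -3.70 ± 0.47, adjusted p = 1.57e-07), and S100β-GFP+ cells, which overlapped both, were 4.12-fold lower than NG2-dsRed+ cells (-2.04 ± 0.45, adjusted p = 0.000657). PSCs were 3.15-fold lower than S100β-GFP+ cells (-1.66 ± 0.45, adjusted p = 0.00328), a call that was lost without S100β-GFP+ libraries 14, 17 and 22 (-1.08, adjusted p = 0.0840). Col8a2, its partner, had at most 3.24 CPM in PSCs, with a median of 0.765 CPM, against medians of 7.53 for S100β-GFP+ and 6.36 for NG2-dsRed+ cells. It was 7.34-fold lower in PSCs than in S100β-GFP+ cells (adjusted p = 0.000207) and 4.94-fold lower than in NG2-dsRed+ cells (adjusted p = 0.00147), with overlap in both.

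Most of the remaining genes had low levels. Col13a1, a transmembrane collagen that muscle places at the neuromuscular junction, had 0, 0.202 and 1.82 CPM in PSCs, 0.625, 1.57 and 4.11 in S100β-GFP+ cells and 0.634, 2.74 and 3.74 in NG2-dsRed+ cells. It was lower in PSCs by 4.77-fold (log2 -2.25 ± 0.62, adjusted p = 0.00355) and 6.44-fold (-2.69 ± 0.60, adjusted p = 0.000509), with overlap in both, and the first call was lost without S100β-GFP+ libraries 14, 17 and 22 (-1.62, adjusted p = 0.0673). Col25a1, a transmembrane collagen needed for motor innervation when made by muscle, had a median of 3.73 CPM in NG2-dsRed+ cells against 0.504 in PSCs and 0.464 in S100β-GFP+ cells. PSCs were 4.93-fold lower than NG2-dsRed+ cells (adjusted p = 0.00477). S100β-GFP+ cells differed from NG2-dsRed+ cells by -1.06 ± 0.65 (adjusted p = 0.224), a difference that passed without S100β-GFP+ library 22 (-1.99, adjusted p = 0.0184), without libraries 14, 17 and 22 (-3.44, adjusted p = 0.000464) and by voom (-2.49, adjusted p = 0.000348). PSCs against S100β-GFP+ cells gave -1.24 ± 0.68 (adjusted p = 0.139), and 1.18 (adjusted p = 0.188) without libraries 14, 17 and 22. Col26a1, a short collagen first described in the gonads, was higher in NG2-dsRed+ cells (3.83, 14.1 and 50.8 CPM) than in PSCs (1.10, 5.44 and 11.9 CPM; log2 difference of PSCs -1.56 ± 0.50, adjusted p = 0.0125) and than in S100β-GFP+ cells (0.523, 5.18 and 10.5 CPM; -1.81 ± 0.54, adjusted p = 0.00920). All 3 ranges overlapped, and the PSC call was lost without NG2-dsRed+ library 28 (-1.16, adjusted p = 0.0527).

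Col7a1, the collagen of anchoring fibrils in skin, reached at most 7.74 CPM and was 2.63-fold higher in S100β-GFP+ than in NG2-dsRed+ cells (adjusted p = 0.0479), a call lost in 22 of the alternative settings. Col23a1, a transmembrane collagen, had a median of 9.597 CPM in PSCs, against medians of 8.58 for S100β-GFP+ and 6.38 for NG2-dsRed+ cells. No comparison passed (adjusted p from 0.108 to 0.964). The difference of PSCs from NG2-dsRed+ cells, 0.69 ± 0.35, passed by voom (0.72, adjusted p = 0.0270), with total counts (1.01, adjusted p = 0.0216) and without PSC library 18 (0.93, adjusted p = 0.0121), and that of S100β-GFP+ from NG2-dsRed+ cells, 0.67 ± 0.36, in the fit of these cell types alone (0.68, adjusted p = 0.0498). The 4 genes that did not pass the filter were Col9a1, Col10a1, Col17a1 and Col19a1. Col17a1, a transmembrane collagen of epithelial adhesion, had at most 5.27 CPM in any library. Col10a1 had at most 0.987 CPM in any S100β-GFP+ or NG2-dsRed+ library.

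Genes for collagen chains were set against each other within a library, as log2 of the ratio of their levels per exon length. The pairs were chains that can share a molecule, apart from Col3a1 and Col1a1, whose products form fibrils together. The absolute ratio depends on the length used, whereas its difference between cell types does not. Over 8 ratios and 3 comparisons, 17 of 24 differences passed a two-sided exact permutation test after adjustment over the 24. Type I collagen is usually built from 2 α1 chains and 1 α2 chain. The Col1a1 to Col1a2 ratio was 1.11 ± 0.13 in S100β-GFP+ cells (mean ± SD, n = 8), 0.89 ± 0.14 in NG2-dsRed+ cells (n = 10) and -0.84 ± 0.67 in PSCs (n = 9). PSC libraries ran from -1.79 to 0.387, with library 34 the highest, and all lay below the lowest S100β-GFP+ library (0.861) and the lowest NG2-dsRed+ library (0.650). The PSC differences of -1.94 and -1.73 had exact permutation p = 8.23e-05 and p = 2.17e-05, each the smallest this test can give at its group sizes (adjusted 0.000247 and 0.000173). S100β-GFP+ cells exceeded NG2-dsRed+ cells by 0.214 (exact permutation test, adjusted p = 0.00717), a call lost without libraries 14, 17 and 22 (0.165, adjusted p = 0.0719).

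**Figure D5:**
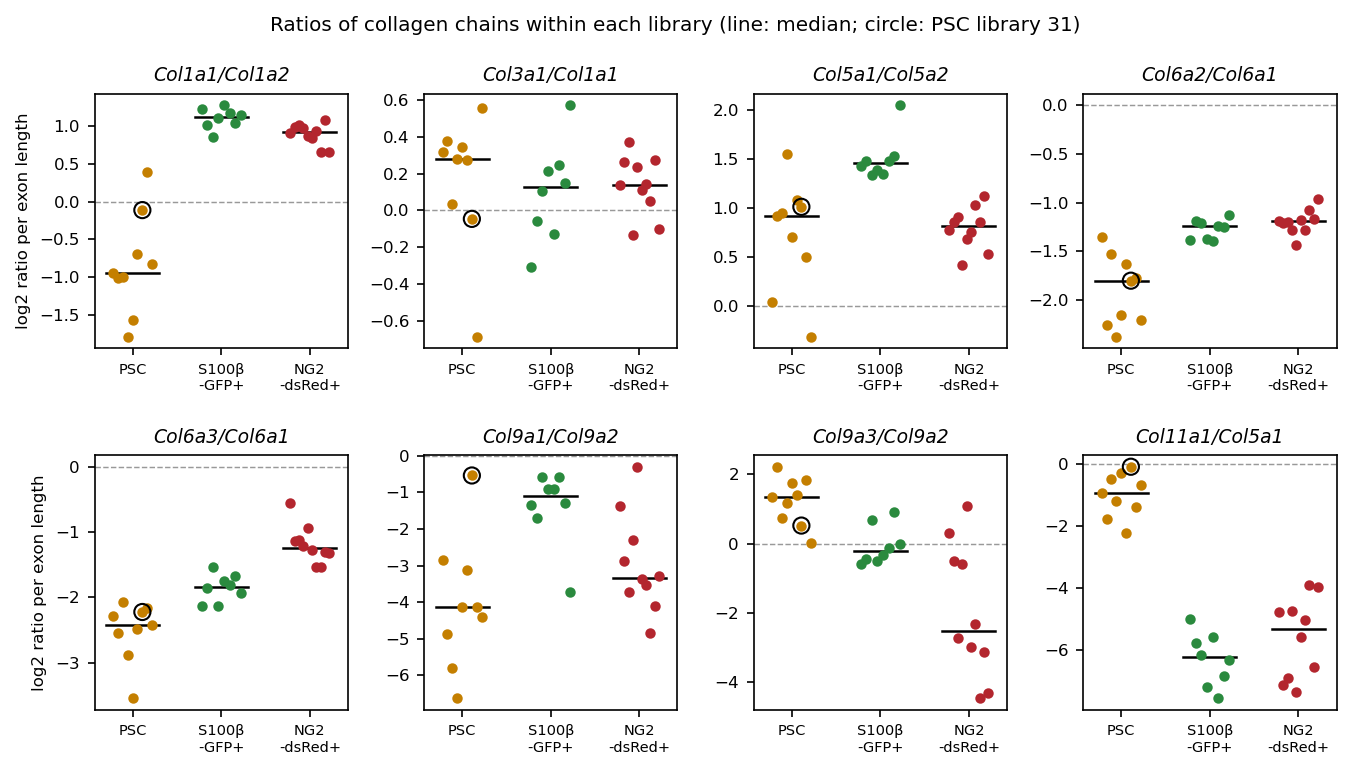
Log2 ratio of the levels per exon length of pairs of collagen chains, with 1 point per library in each cell type. The Col1a1 to Col1a2 ratio of the PSC libraries lies between -1.79 and 0.387, below every library of the other groups, and their Col11a1 to Col5a1 ratio lies above every other library.

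The ratio of Col3a1 to Col1a1 passed the test in no comparison (0.162 ± 0.365 in PSCs, against 0.098 ± 0.269 for S100β-GFP+ and 0.136 ± 0.162 for NG2-dsRed+, exact permutation test, adjusted p from 0.747 to 0.872). For type V, Col5a1 to Col5a2 was 1.51 ± 0.23 in S100β-GFP+ cells, above PSCs at 0.713 ± 0.567 (difference of PSCs -0.792, exact permutation test, adjusted p = 0.00132) and above NG2-dsRed+ cells at 0.792 ± 0.213 (0.712, adjusted p = 0.000183). The Col11a1 to Col5a1 ratio was -1.01 ± 0.71 in PSCs, against -6.31 ± 0.86 for S100β-GFP+ and -5.60 ± 1.30 for NG2-dsRed+. PSCs exceeded both, by 5.30 and 4.60 (exact permutation test, adjusted p = 0.000247 and 0.000173), without overlap.

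In type VI collagen, Col6a2 to Col6a1 was -1.90 ± 0.36 in PSCs and lower than the -1.27 ± 0.10 of S100β-GFP+ cells and the -1.20 ± 0.13 of NG2-dsRed+ cells, by -0.627 and -0.699 (exact permutation test, adjusted p = 0.000718 and 0.000183). Col6a3 to Col6a1 differed in all 3 comparisons, with -2.52 ± 0.46 in PSCs, against -1.85 ± 0.21 for S100β-GFP+ and -1.19 ± 0.29 for NG2-dsRed+ (exact permutation test, adjusted p = 0.000718, 0.000173 and 0.000183). In type IX, Col9a3 to Col9a2 was 1.23 ± 0.69 in PSCs, against -0.049 ± 0.561 for S100β-GFP+ and -1.96 ± 1.93 for NG2-dsRed+ (PSC differences 1.28 and 3.19, exact permutation test, adjusted p = 0.00319 and 0.000635). Col9a1 to Col9a2 was -4.06 ± 1.78 in PSCs, against -1.38 ± 1.02 for S100β-GFP+ and -2.97 ± 1.34 for NG2-dsRed+, and PSCs were below S100β-GFP+ cells (-2.68, exact permutation test, adjusted p = 0.00522). Against NG2-dsRed+ cells the difference was -1.09 (exact permutation test, adjusted p = 0.198), or -1.53 (adjusted p = 0.0319) without library 31. The PSC libraries apart from 31 thus held Col9a2 and Col9a3 with little Col9a1. Outside PSCs the type IX ratios rest on few reads. Col9a1, Col9a2 and Col9a3 had 59, 97 and 115 counts over all S100β-GFP+ libraries, and 17, 194 and 40 over all NG2-dsRed+ libraries. The prior count of 2 therefore weighs on the ratios of these groups and on their differences from PSCs.

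Genes that make, process or bind these collagens were measured as lists. Of 32 genes of collagen biosynthesis and processing 31 were tested, and 5 were higher and 17 lower in PSCs than in S100β-GFP+ cells (median log2 -0.84), 7 higher and 9 lower than in NG2-dsRed+ cells (median -0.07), and 16 higher and 3 lower in S100β-GFP+ than in NG2-dsRed+ cells (median 0.62). Of all genes 22.9% and 24.1%, 20.9% and 23.1%, and 18.1% and 15.2% were higher and lower in these comparisons. The counts of PSCs against NG2-dsRed+ cells are near the shares of that comparison. Pcolce2, an enhancer of procollagen C-proteinase, had 303, 376 and 722 CPM in S100β-GFP+ cells against medians of 1.37 in PSCs and 3.26 in NG2-dsRed+ cells (83.9-fold lower in PSCs, adjusted p = 2.65e-09). Loxl1, a cross-linking enzyme, was 38.0-fold lower in PSCs than in S100β-GFP+ cells (adjusted p = 2.08e-14). Against NG2-dsRed+ cells Pcolce and the N-propeptidase gene Adamts14 were 6.98-fold and 7.59-fold lower (adjusted p = 5.69e-10 and 5.80e-06). P3h2, a prolyl 3-hydroxylase, had 11.5, 31.3 and 56.8 CPM in PSCs and was higher than in S100β-GFP+ cells (5.84-fold, adjusted p = 1.65e-06) and NG2-dsRed+ cells (2.72-fold, adjusted p = 0.000657), and Colgalt2, a glycosyltransferase of collagen, was 3.32-fold higher than in S100β-GFP+ cells (adjusted p = 2.54e-05). Loxl4 was called higher in PSCs than in NG2-dsRed+ cells (log2 2.18 ± 0.88, adjusted p = 0.0448), and the value was -0.62 without library 31. Between S100β-GFP+ and NG2-dsRed+ cells Pcolce2 (124-fold) and Loxl4 (8.43-fold) were higher and Colgalt2 (3.23-fold) and Plod1 (2.42-fold) lower.

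Of 9 collagen receptor genes 4 were higher and 4 lower in PSCs than in S100β-GFP+ cells (median log2 0.13), and 3 were higher and 5 lower than in NG2-dsRed+ cells (median -0.74), beside 22.9% and 24.1%, and 20.9% and 23.1%, of all genes. Itga2, the α2 integrin subunit, had 59.8, 96.0 and 132 CPM in PSCs, 12.9, 22.1 and 25.8 in S100β-GFP+ cells and 0.463, 3.73 and 7.74 in NG2-dsRed+ cells, with no overlap (4.50-fold, adjusted p = 1.20e-07, and 24.1-fold, adjusted p = 1.02e-13). Itga1 in PSCs was 6.99-fold higher than in S100β-GFP+ cells (adjusted p = 3.06e-08). Ddr2, a tyrosine kinase receptor for fibrillar collagen, was lower in PSCs against both (31.5-fold, adjusted p = 8.62e-16, and 11.4-fold, adjusted p = 5.54e-14), as did Itga11 against S100β-GFP+ cells (97.97-fold, adjusted p = 2.22e-13) and Mrc2, a collagen uptake receptor, against NG2-dsRed+ cells (6.29-fold, adjusted p = 2.96e-08). Lair1, a collagen receptor of leukocytes, was higher in PSCs (8.22-fold, adjusted p = 0.00117) and S100β-GFP+ cells (48.2-fold, adjusted p = 7.11e-07) than in NG2-dsRed+ cells, beside macrophage markers of up to 570 and 10350 CPM in them. Between S100β-GFP+ and NG2-dsRed+ cells 5 receptors were higher, Itga11 among them (19.0-fold), and 3 were lower, among them Itga1 (6.75-fold) and Itga10 (2.71-fold). Of all genes 18.1% were higher and 15.2% lower in that comparison.

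Small leucine-rich proteoglycans coat collagen fibrils, and none of the 10 was higher in PSCs. Against S100β-GFP+ cells 9 were lower (median log2 -3.73) and against NG2-dsRed+ cells 6 were lower (median -1.92), where 24.1% and 23.1% of all genes were lower and 22.9% and 20.9% higher. Aspn had 5.93, 13.1 and 32.4 CPM in PSCs, 207, 377 and 619 in S100β-GFP+ cells and 384, 513 and 596 in NG2-dsRed+ cells (22.7-fold and 30.1-fold lower, adjusted p = 8.35e-14 and 9.75e-15), and Podn was 19.4-fold and 12.5-fold lower (adjusted p = 6.35e-08 and 6.50e-07). In S100β-GFP+ against NG2-dsRed+ cells 5 were higher and none lower (median 0.76), led by Kera (24.3-fold) and Fmod (5.36-fold), beside 18.1% and 15.2% of all genes. The 8 basement membrane collagens, left out of the 34, followed another pattern. In PSCs 4 were higher and 2 lower than in S100β-GFP+ cells (median log2 0.44), and 1 was higher and 6 were lower than in NG2-dsRed+ cells (median -1.62), beside 22.9% and 24.1%, and 20.9% and 23.1%, of all genes. Col4a4 was higher against both (4.98-fold, adjusted p = 1.03e-08, and 5.62-fold, adjusted p = 7.65e-10) and Col18a1 against S100β-GFP+ cells (4.11-fold, adjusted p = 4.69e-09). Col4a3 and Col4a5 were lower against S100β-GFP+ cells (5.04-fold and 3.76-fold) and Col15a1 and Col4a6 against NG2-dsRed+ cells (5.46-fold and 4.24-fold). Between S100β-GFP+ and NG2-dsRed+ cells 4 were lower and none higher (median -1.73), beside 15.2% and 18.1% of all genes. Col4a1 and Col4a2 were lower by 5.35-fold and 5.27-fold.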

How the data were processed

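RNA-seq was run on cells sorted from muscle of S100β-GFP;NG2-dsRed mice. Raw counts per gene were deposited as one table. The submitters' processing notes name HISAT2, HTSeq and GRCm38, and the methods add adapter and quality trimming, without a strand setting for the counting. The labels list 36 libraries, 12 per cell type, and the 27 in the table were used: 9 PSC, 8 S100β-GFP+ and 10 NG2-dsRed+. The study states 7 S100β-GFP+ replicates after its quality control, and which library it left out was not found in the labels or methods. No 2 libraries held identical counts. Each replicate is 1 mouse according to the methods.

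From the counts that the authors deposited, edgeR 4.0.16 (R 4.3.3) computed TMM factors, kept genes with filterByExpr at a minimum count of 10 (15330 of 52636) and ran the quasi-likelihood test on all 27 libraries in 1 fit, with Benjamini-Hochberg adjustment and a threshold of 0.05. Standard errors are the log2 fold change divided by the root of F. Log2 levels used a prior count of 2. Chain ratios were compared by a two-sided exact permutation test over libraries (SciPy 1.17.1). Gene positions and exon lengths came from GENCODE M21, which held 52489 of the identifiers (99.72%), and promoter windows from RefSeq. Exons of Col5a1, Col6a6, Col9a3, Col10a1 and Col22a1 overlap genes on the other strand by 16 to 234 bases, whose reads cannot be told apart if strand was not used. The methods were tested on simulated data.

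Every collagen on the list is accounted for. Levels and test results are given for genes that, in any 1 cell type, passed the threshold against each of the others, and for the 3 with the highest level per length in each. For some of them a comparison that did not pass is not printed. From the other lists up to 2 genes with the largest rise and 2 with the largest fall per comparison are named. Members and lists were chosen with earlier results of these data known. The alternatives were DESeq2 1.42.0 (the test of the study), voom with quality weights (limma 3.58.1), other scalings, no filter, only the 2 cell types compared, the share of Lars2, Gm23935 and Gm15564 as a term, library sizes without collagen counts, no S100β-GFP+ libraries 14, 17 and 22, and each library left out in turn. Leaving out PSC library 31 together with those 3, leaving it out of the chain ratios, and coding transcript lengths were added after seeing the data.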

Additional observations from a re-analysis of the deposited data

Results flagged for a closer look

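Each collagen was examined in each cell type for a library whose gap to its nearest neighbour was large against the range of the group (Dixon's criterion on log2 CPM). Of 102 groups 9 passed, where chance gives about 1 in 20. PSC library 31 was the highest for 5 of them: Col2a1 with 3859 CPM (next highest PSC library 14.0), Col11a2 with 309 CPM (32.9), Col9a1 with 196 CPM (4.00), Col9a3 with 311 CPM (69.6) and Col10a1 with 28.9 CPM (0.626). Its chondrocyte and tenocyte markers summed to 1543 CPM, against 127 to 352 in the other 8 PSC libraries. Their part in these values was not tested. PSC library 18 was the lowest for Col14a1, with 6.31 CPM against 14.5 in the next. NG2-dsRed+ library 2 was the highest of its group for Col20a1, with 20.0 CPM against 7.71 in the next, and for the Schwann cell marker sum, with 1066 CPM. NG2-dsRed+ library 15 was the lowest for Col8a2 (0.175 CPM, next 1.96) and NG2-dsRed+ library 9 for Col13a1 (0.634 CPM, next 1.62).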

How the results depend on the processing

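No paired analysis was possible because every library has its own number, so that no number is shared between the cell types. Of 90 collagen results 65 were past the threshold, and 55 of these kept their call and direction under every setting tried. The 10 others were Col2a1 (both PSC comparisons), Col5a1, Col5a2, Col6a6 and Col26a1 (PSCs against NG2-dsRed+ cells), Col8a1 and Col13a1 (PSCs against S100β-GFP+ cells), and Col5a2 and Col7a1 (S100β-GFP+ against NG2-dsRed+ cells). Under the alternatives other than leaving out each library in turn, 28 to 34 collagens were tested. In PSCs 8 to 11 were higher and 13 to 17 lower than in S100β-GFP+ cells, beside 8.74% to 44.1% and 15.9% to 28.3% of all genes. Against NG2-dsRed+ cells 9 to 12 were higher and 13 to 15 lower, beside 8.39% to 33.4% and 9.73% to 29.5%. For S100β-GFP+ against NG2-dsRed+ cells 11 to 15 were higher and 3 to 4 lower, beside 13.5% to 22.9% and 5.35% to 24.5%. With each library left out in turn the counts were 8 to 9 and 15 to 16, 9 to 11 and 12 to 15, and 12 to 14 and 3 to 4. The shares of all genes were then 20.8% to 26.5% and 22.7% to 25.2% in the first comparison. They were 19.4% to 25.3% and 20.8% to 23.4% in the second, and 16.5% to 21.4% and 13% to 17.4% in the third. Of the 24 chain ratios 14 passed without S100β-GFP+ libraries 14, 17 and 22, 17 with a prior count of 0.5 or with medians, and 18 without library 31. Scaling by total counts moved the median log2 fold change of all genes to 0.54, 0.30 and -0.24 in the 3 comparisons, so levels under it are relative to that shift.

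Some log2 fold changes changed sign, and the cause was not tested. For PSCs against S100β-GFP+ cells Col2a1 was -1.87 by DESeq2 (adjusted p = 0.0103), -1.75 by voom and -2.02 without libraries 31, 14, 17 and 22, and Col11a2 was -0.75, -0.37 and -0.80. For PSCs against NG2-dsRed+ cells Col2a1 was -0.98, -1.15 and -1.10 under the same 3, and Loxl4 was -1.18 by voom and -0.60 without those 4 libraries. All 4 also turned negative when library 31 alone was left out. Without those 4 libraries Col22a1 was -0.14 (PSCs against NG2-dsRed+ cells), Col20a1 -0.22 (S100β-GFP+ against NG2-dsRed+ cells, also without 14, 17 and 22 alone) and Col25a1 1.08 (PSCs against S100β-GFP+ cells, 1.18 without 14, 17 and 22 alone). By total counts Col11a1 was -0.0265 (S100β-GFP+ against NG2-dsRed+ cells) and Col12a1 0.22 (PSCs against S100β-GFP+ cells). With the 3-gene share as a term Col23a1 was -0.33 and Col26a1 -0.19 (PSCs against S100β-GFP+ cells) and Col2a1 -0.25 (S100β-GFP+ against NG2-dsRed+ cells). By medians the Col5a1 to Col5a2 difference of PSCs from NG2-dsRed+ cells was 0.10. With 1 library left out, Col2a1 ran from -1.97 to 5.17 and from -1.13 to 6.09 in the 2 PSC comparisons, Col11a2 from -0.69 to 1.33 and Col23a1 from -0.10 to 0.24 (PSCs against S100β-GFP+ cells), Col22a1 from -0.16 to 0.74 and Loxl4 from -0.62 to 2.39 (PSCs against NG2-dsRed+ cells), and Col5a3 from -0.19 to 0.0346 (S100β-GFP+ against NG2-dsRed+ cells).

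Genes near 1 CPM rest on few reads, and Col9a1, Col10a1, Col17a1 and Col19a1 were too low to test with the filter. Without a filter Col17a1 was lower in PSCs (log2 -2.71, adjusted p = 0.00681, and -2.14, adjusted p = 0.0353, against S100β-GFP+ and NG2-dsRed+ cells), Col9a1 higher (4.28, adjusted p = 0.000884, and 6.37, adjusted p = 5.73e-06) and Col10a1 higher (3.49, adjusted p = 0.0146, and 4.61, adjusted p = 0.00138), the last 2 with library 31 far above the other PSC libraries. No fit left out both the filter and library 31. By DESeq2 Col17a1 was -2.91 and -2.19, Col9a1 0.23 and 2.49, and Col10a1 -0.90 and 0.46.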
